A study of Mus musculus with 24 samples.

Results

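Interferon-stimulated genes are the genes that cells turn on when type I, II or III interferon reaches its receptor, and 43 of them were followed here through the maturation of mouse bone marrow eosinophils. They were chosen by symbol, from general knowledge of the interferon response but with earlier results of these data known. Their counts beside those of all genes are therefore descriptive. All 43 were among the 24982 genes listed. Of these, 41 passed the filter on low counts and were tested together with all other genes that passed, 12743 in all. Mx2 and Ifi44, with almost no reads in any library, did not pass and were not tested.

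The cells were eosinophils sorted by flow cytometry from the bone marrow of wild type C57BL6 mice, at 4 stages of maturation, which the labels number I to IV. One set of mice received 400 ng of recombinant interleukin 33 (IL-33), an alarm cytokine of damaged barriers that drives eosinophilia, into the peritoneum each day for 7 days. The other set was in steady state. There were 3 libraries for every stage in either condition, which makes 8 groups and 24 libraries, and each library was made from the pooled marrow of 3 mice, so no value belongs to 1 animal. Magnetic depletion against CD45R, NK1.1, Ly6G and CD90.2 preceded the sort. The p-values below measure the spread between these pooled samples.

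Interferon receptors signal through Janus kinases to transcription factors, IRF9 among them, which bind a DNA element called the interferon-stimulated response element (ISRE). The genes behind that element include sensors of foreign nucleic acid, enzymes that degrade or block viral RNA, and IRF7, which feeds back on the production of interferon. Many of them are also held at a low level in unstimulated cells by small amounts of circulating or local interferon, and SOCS1 and USP18 limit the signal.

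Many of the promoters held that element. A window from 250 bases before to 50 bases after the start of the gene (RefSeq, GRCm38.p6) was at hand for 33 of the 43 genes, and 16 of these 33 (48.5%) held the letters GAAA-NN-GAAA, or TTTC-NN-TTTC when read on the other strand (N is any base), which are the core of an ISRE. Among all 27025 genes with such a window the letters occurred in 1079 (3.99%). The 4 stretches below, each the 150 bases before the start and written 5′ to 3′ along the gene's own strand, belong to Isg15 and Rsad2, which were lower under IL-33 and hold a match, to Xaf1, which was lower in all 4 stages and holds none, and to Oas1a, the 1 gene that passed the test as higher under IL-33 at any stage. Capitals mark the ISRE-type letters.
Isg15 (chr4:156200819-156200968, minus strand): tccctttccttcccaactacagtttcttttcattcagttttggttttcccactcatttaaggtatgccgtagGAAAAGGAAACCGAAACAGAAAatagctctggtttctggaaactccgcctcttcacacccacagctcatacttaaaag
Rsad2 (chr12:26456453-26456602, minus strand): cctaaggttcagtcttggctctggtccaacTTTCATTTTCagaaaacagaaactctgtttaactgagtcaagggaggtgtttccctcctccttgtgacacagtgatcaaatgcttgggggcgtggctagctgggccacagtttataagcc
Xaf1 (chr11:72301479-72301628, plus strand): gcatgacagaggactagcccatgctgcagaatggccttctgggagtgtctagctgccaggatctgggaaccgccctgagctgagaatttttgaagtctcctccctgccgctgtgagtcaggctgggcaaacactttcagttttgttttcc
Oas1a (chr5:120907526-120907675, minus strand): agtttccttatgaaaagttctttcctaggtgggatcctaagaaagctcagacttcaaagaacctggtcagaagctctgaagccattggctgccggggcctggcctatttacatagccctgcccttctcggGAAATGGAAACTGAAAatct
Isg15 held 3 overlapping matches, the nearest ending 57 bases before the start, Oas1a held 2, the nearest ending 5 bases before it, and Rsad2 held 1 on the reverse strand, 111 bases before it. A match was found in 8 of the 19 genes with a window that fell under IL-33 on average over the stages (42.1%) and in 8 of the 13 tested ones that did not pass that test (61.5%). A match describes letters only, and the absence of one in this window says nothing of the factors.

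Some libraries and markers differed in ways that touch these results. Gene counts ran between 8335138 and 14909453 per library. Reads assigned to no gene made up 9.19% to 16.6% of reads in IL-33 libraries and 17.8% to 30.5% in steady state libraries. The steady state libraries numbered 3 stood apart in every stage on 5 early stress genes (Jun, Atf3, Fos, Hspa1a and Hspa1b), which summed to between 8340 and 9680 CPM (counts scaled to library size) there, against 2460 to 4110 CPM in the other steady state libraries. Of the eosinophil genes Epx, Prg2, Prg3, Il5ra, Ccr3 and Siglecf the stage IV sum was 20500 ± 2800 CPM under IL-33 and 3240 ± 371 CPM for steady state (SD, n = 3 each). The granule genes Epx, Prg2 and Prg3 carried that gap. Il5ra, the receptor chain for interleukin 5, went the other way, with 79.8, 82.5 and 146 CPM in IL-33 stage IV and 273, 245 and 216 CPM in steady state. Ccr3, the eotaxin receptor, had 1400, 1580 and 1650 CPM under IL-33 and 2240, 2160 and 1570 CPM in steady state. Siglecf lay higher under IL-33 in stage IV, with 7173, 9011 and 6935 unscaled counts, against 6434, 5734 and 2204 in steady state. Genes of neutrophils, of monocytes, and of basophils and mast cells also differed between the conditions, and their values stand beside the results below. In such bulk samples fewer cells of a type and less RNA per cell cannot be told apart.

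The summed level of the 43 genes lay lower under IL-33 in the first 3 stages. Their TMM-scaled CPM summed to 736 ± 61, 838 ± 21.8, 1150 ± 112 and 2080 ± 221 in stages I to IV under IL-33, against 968 ± 85.7, 1500 ± 260, 2630 ± 217 and 2140 ± 303 in steady state (SD, n = 3 each). The ranges of the conditions did not overlap in stages I, II and III and overlapped in stage IV. A few genes weighed heavily in the sum. Sp100 alone made up 27% of it in IL-33 stage III and 26.1% in steady state stage III, and Samd9l 11.2% and 17.6%. Under IL-33 22, 21, 23 and 35 of the 43 genes averaged at least 5 CPM in stages I to IV, against 31, 36, 35 and 35 in steady state. Per kilobase of annotated exon, the membrane protein gene Ifitm3, which hinders the entry of viruses, had the highest level in every group except steady state stage I, with 104, 118, 209 and 320 CPM per kb under IL-33. The values for Ifitm3 were 53.5, 267, 330 and 320 CPM per kb in steady state. Bst2, which tethers budding virions, Ifi35 and the nuclear body gene Sp100 filled the next 3 places in the 4 IL-33 groups. In steady state Bst2 was first in stage I, and Samd9l in stages II and III and Isg15 in stage IV were among the first 4.

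**Figure D1:**
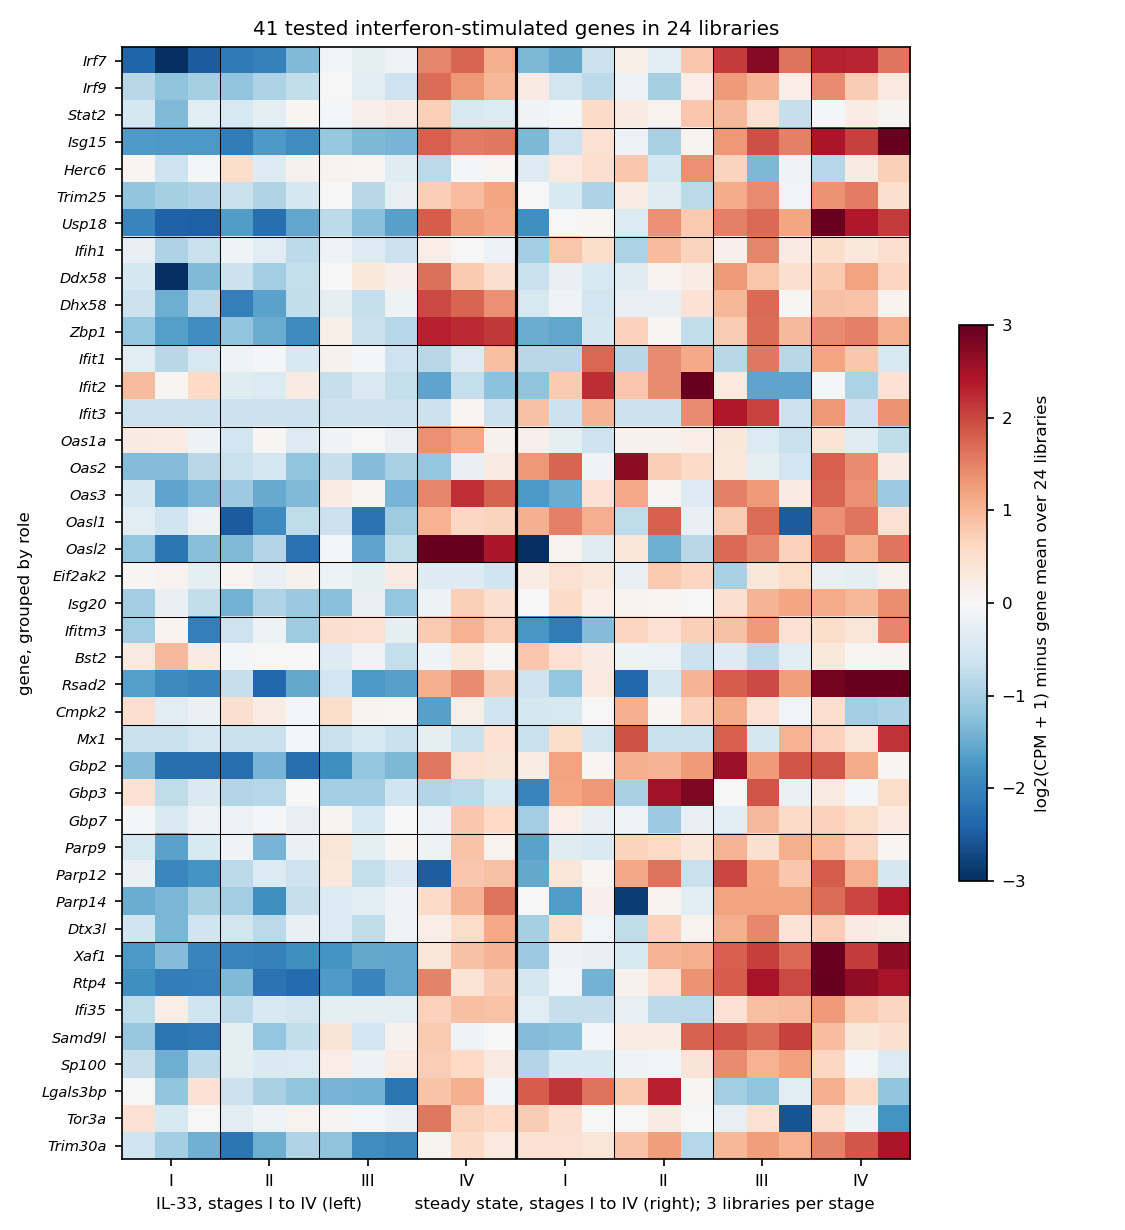
Level of each of the 41 tested genes (rows, grouped by role) in each of the 24 libraries (columns; IL-33 stages I to IV on the left, steady state stages I to IV on the right, 3 libraries per stage), as log2(CPM + 1) minus the gene's mean over all libraries, with colours capped at 3 in either direction. IL-33 libraries of stages I to III are mostly blue (low) and those of stage IV mostly red (high), while steady state libraries are already red in stage III.

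The first question of the design was how eosinophils of the same stage differ between mice given IL-33 and mice in steady state. Some interferon-stimulated genes were lower under IL-33 in each stage, at most 19 of the 41, which was in stage III. By edgeR's quasi-likelihood test, at a Benjamini-Hochberg adjusted p below 0.05 over all genes, 0 of the 41 were higher and 7 lower in stage I, where 2.71% of all genes tested were higher and 1.36% lower (4.06% in either direction). In stage II 0 were higher and 12 lower (of all genes 4.06% were higher and 3.97% lower, 8.03% together). In stage III 0 were higher and 19 lower (of all genes 18.5% were higher and 14.9% lower, 33.4% together). In stage IV 1 was higher and 3 were lower, while 7.48% of all genes were higher and 4.68% lower (12.2% together). The median log2 fold change of the 41 was -0.99, -1.49, -1.50 and -0.34 in stages I to IV, and that of all genes tested was 0.02, 0.06, 0.00 and -0.04. Averaged over the 4 stages 26 of the 41 were lower and 0 higher (of all genes 21.4% were higher and 16.7% lower, 38.1% together), with a median of -1.11, against 0.05 for all genes. That average treated same-numbered libraries of different stages as independent. Of its 26 calls 16 held under every alternative setting, with counts summed over the stages among them.

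The calls differed in how firmly they stood. In stage III 12 of the 19 calls held under every alternative setting and with each library left out, among them Xaf1, Rtp4, Gbp2, Isg15, Usp18, Trim30a and Irf7, and in stage II 3 of the 12 did, Irf7, Usp18 and Xaf1. None of the 7 calls of stage I and none of the 4 of stage IV did. Without the second IL-33 library 0 of the 41 genes were called in stage I, without the third IL-33 library 2, without the second or the third steady state library 1, and without the first steady state library 4. In stage II 7 were called without the second IL-33 library. In stage IV 1 was called without the first or the second IL-33 library or without the third steady state library. Without the steady state libraries numbered 3 the counts were 7, 14, 20 and 3 in stages I to IV and 26 on average.

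Gbp2, Irf7, Isg15, Rtp4, Usp18 and Xaf1 were lower under IL-33 in each of stages I, II and III, and Rtp4 and Xaf1 were lower in all 4 stages. In GENCODE M21 on GRCm38, Irf7 lies at chr7:141262706-141266481, Isg15 at chr4:156199424-156200818, Usp18 at chr6:121245906-121270917, Gbp2 at chr3:142620602-142638008, Xaf1 at chr11:72301629-72313733 and Rtp4 at chr16:23520291-23614222. Of the 41 genes, 21 were lower in at least 1 stage. Counts over several stages were not made for all genes, of which 14.9% were lower in stage III alone.

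**Figure D2:**
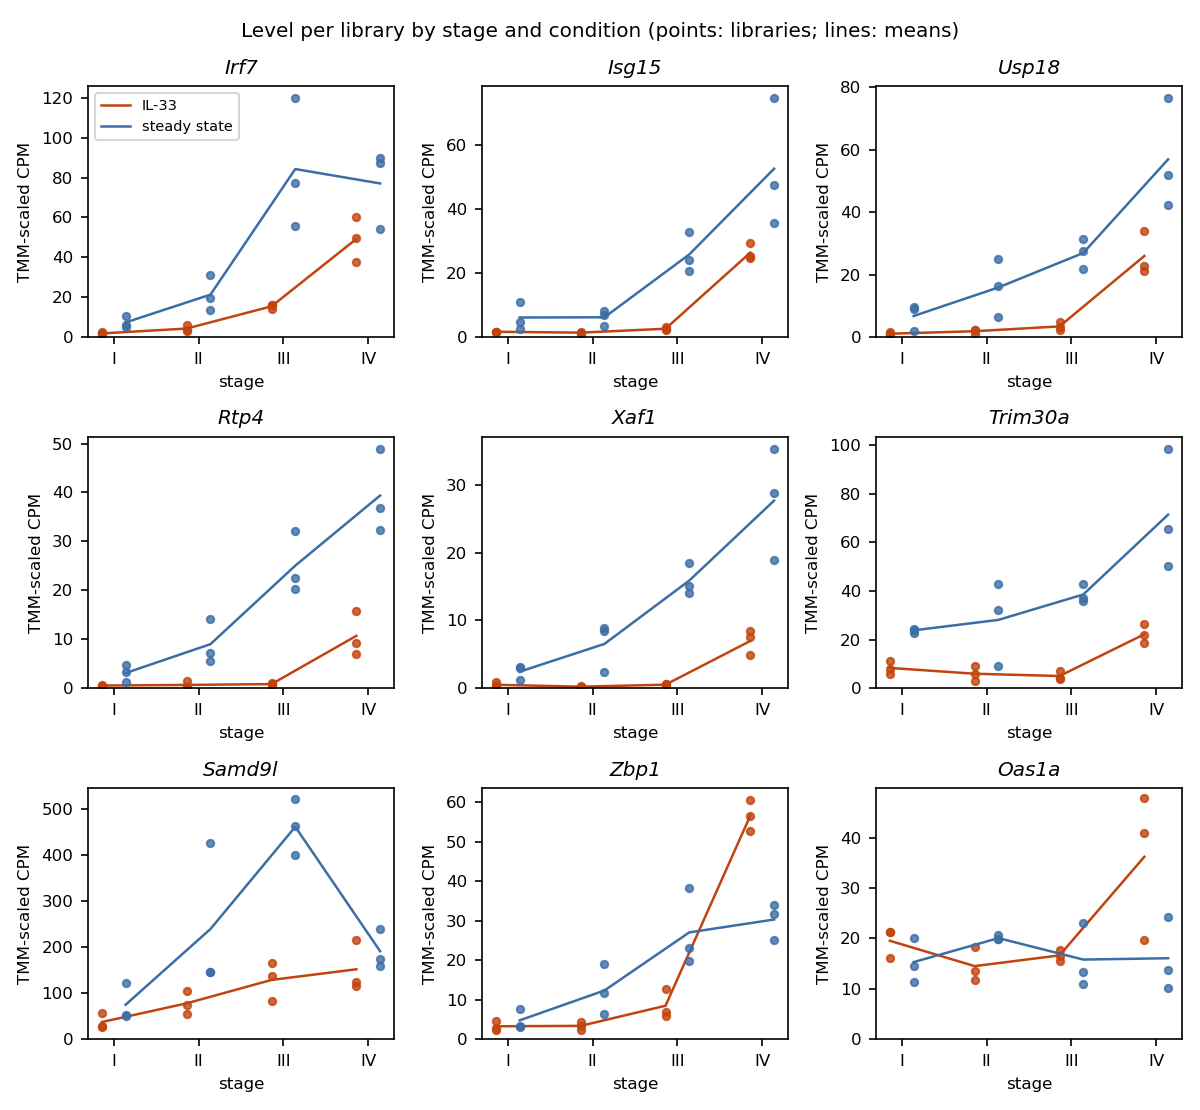
Level (TMM-scaled CPM, linear axis from 0) of 9 of the genes in each library by stage, with lines through the group means; IL-33 is drawn left of steady state within each stage. For Isg15, Usp18, Rtp4 and Xaf1 the IL-33 libraries of stages I to III lie near 0 and those of stage IV rise, while Oas1a is highest in IL-33 stage IV.

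The transcription factors of the response came first. Irf7, the master regulator of type I interferon genes, had 16.2, 14.1 and 16 CPM in IL-33 stage III, against 77.4, 120 and 55.5 CPM in steady state stage III. In stage I it had 2.43, 0.872 and 2.2 CPM under IL-33 and 6.15, 5.28 and 10.6 CPM in steady state, and in stage II 3.2, 3.44 and 6.21 CPM under IL-33 and 19.6, 13.4 and 30.9 CPM in steady state. Each IL-33 library lay below every steady state library in these 3 stages. The log2 fold change of Irf7 was -1.99 (SE 0.43), -2.31 (SE 0.41) and -2.45 (SE 0.41) in stages I, II and III, with edgeR adjusted p of 0.0117, 0.0013 and 8.22e-05. In stage IV it had 49.6, 60.2 and 37.9 CPM under IL-33 and 89.6, 87.2 and 54.4 CPM in steady state, groups that overlapped. The library kit does not mark the strand and exons of Irf7 overlap those of Phrf1 on the other strand, so reads within the overlap cannot be told apart.

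Irf9, the DNA-binding part of the complex that acts on the ISRE, had 46.8, 36.5 and 29.8 CPM in IL-33 stage III, against 113, 94.6 and 53.4 CPM in steady state. The groups did not overlap, and the log2 fold change was -1.21 (SE 0.36, edgeR adjusted p 0.0115). The call for Irf9 was lost under some alternatives, and exons of Irf9 overlap those of Rnf31. Stat2, its partner, passed the test in none of the comparisons: it had 42, 47.6 and 51.4 CPM in IL-33 stage III and 85.3, 59.2 and 26.1 CPM in steady state, which overlapped.

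Isg15, a ubiquitin-like protein that is joined to other proteins, had 3, 2.48 and 2.33 CPM in IL-33 stage III, against 20.8, 32.7 and 24 CPM in steady state. This was a 9.89-fold lower level (log2 fold change -3.31, SE 0.48, edgeR adjusted p 1.72e-05), with no overlap. In stage IV Isg15 had 29.3, 24.6 and 25.3 CPM under IL-33 and 47.4, 35.7 and 74.8 CPM in steady state, and that difference did not pass the test. Usp18, which takes ISG15 off proteins and dampens receptor signalling, had 4.79, 3.22 and 2.25 CPM in IL-33 stage III, against 27.7, 31.3 and 21.8 CPM in steady state. Its log2 fold change there was -2.98 (SE 0.55, edgeR adjusted p 0.000256), and the groups did not overlap. Trim25, a ubiquitin ligase of the RIG-I route, was lower in stage III by 1.27 on the log2 scale (SE 0.36, edgeR adjusted p 0.00864), with libraries of the groups overlapping. Herc6, the ligase that attaches ISG15 in the mouse, passed in no comparison and averaged between 9.17 and 18.9 CPM in all 8 groups.

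Of the 4 sensors of foreign nucleic acid, 0 were called in stage I, 2 were lower in stages II and III, 0 were called in stage IV and 4 were lower on average. Zbp1, which senses Z-form nucleic acid and can start cell death, had 12.8, 6.77 and 5.78 CPM in IL-33 stage III, against 19.9, 38.2 and 23 CPM in steady state (log2 fold change -1.68, SE 0.44, edgeR adjusted p 0.00558). In stage IV it had 60.7, 56.6 and 52.6 CPM under IL-33 and 31.8, 34 and 25.1 CPM in steady state. All 3 IL-33 libraries of stage IV lay above steady state, but this difference did not pass (edgeR adjusted p 0.183). Dhx58, which encodes the RIG-I-like protein LGP2, had 17.1, 12.2 and 18.4 CPM in IL-33 stage III and 42, 69 and 21.2 CPM in steady state (log2 fold change -1.47, SE 0.42, edgeR adjusted p 0.00903). The groups did not overlap. In stage IV Dhx58 had 85.4, 71.7 and 55.4 CPM under IL-33 and 38.9, 38.2 and 22.3 CPM in steady state, again without overlap, and did not pass (edgeR adjusted p 0.0854). Ifih1 and Ddx58, the RNA sensors MDA5 and RIG-I, fell only in the average of the 4 stages, by 0.89 and 0.57 on the log2 scale (SE 0.27 and 0.21, edgeR adjusted p 0.0106 and 0.0317), and all 4 sensors lost that call when counts were summed over the stages. The log2 fold changes were then -0.89 for Ifih1, -0.40 for Ddx58, -0.18 for Dhx58 and -0.12 for Zbp1, with edgeR adjusted p of 0.0666, 0.187, 0.572 and 0.717.

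The genes for IFIT proteins, which bind viral RNA ends, were near the limit of detection. Ifit3 had 0 counts in all 9 IL-33 libraries of stages I to III, against 48, 36 and 107 counts over the 3 steady state libraries of those stages. Set against a floor of 3 counts over the group, it was at least 16.9-fold, 15.2-fold and 52.7-fold lower. All 36 steady state counts of stage II came from the library numbered 3, so that bound rests on 1 library, and 1 steady state library of stage I was at 0. In stage III it had 7.28, 5.37 and 0 CPM in steady state, so 1 steady state library was at 0 there too, and the call in stage III (edgeR adjusted p 0.0394) did not hold under every alternative. Ifit1 had 0.942, 0.737 and 0.16 CPM in IL-33 stage III and 0, 4.34 and 0 CPM in steady state, which overlapped. Reads of these genes may be split with near-identical copies, and the values are uncertain for that reason as well.

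The OAS genes, whose enzymes make the signal that activates RNase L, moved unlike one another. Oas2 had 0, 0 and 0.367 CPM in IL-33 stage I, against 5.06, 7.24 and 1.27 CPM in steady state (log2 fold change -5.16, SE 1.5, edgeR adjusted p 0.046). Oasl2 had 7.96, 2.08 and 4.49 CPM in IL-33 stage III, against 29, 24.3 and 13.9 CPM in steady state (log2 fold change -2.21, SE 0.78, edgeR adjusted p 0.0322). All IL-33 libraries lay below steady state in both cases. In stage IV Oasl2 had 72.5, 77.2 and 49.2 CPM under IL-33 and 28.9, 18.3 and 27 CPM in steady state, without overlap, and did not pass (edgeR adjusted p 0.229). Oas1a was the only one of the 41 that passed the test as higher under IL-33 in any stage. It had 48, 41 and 19.7 CPM in IL-33 stage IV, against 24.3, 13.8 and 10.1 CPM in steady state (log2 fold change 1.17, SE 0.38, edgeR adjusted p 0.0487). The groups overlapped, the call was lost under most alternatives, and Oas1a has close copies in the genome that could share its reads. Oas3 and Oasl1 were called in no stage, and Oasl1 was lower on average by 1.98 on the log2 scale (SE 0.57, edgeR adjusted p 0.00879).

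Isg20, an exonuclease of RNA, was lower in stages II and III. In stage III it had 6.59, 14.4 and 7.14 CPM under IL-33, against 24.6, 35.8 and 40.6 CPM in steady state (log2 fold change -1.84, SE 0.36, edgeR adjusted p 0.000453), with no overlap. Eif2ak2, the double-stranded RNA kinase PKR, passed in no comparison and averaged between 11.3 and 22.3 CPM in the 8 groups.

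Among membrane proteins and the viperin pair only Rsad2 fell. Rsad2 encodes viperin, which makes a chain-terminating nucleotide, and had 2.4, 0.536 and 0.642 CPM in IL-33 stage III, against 17, 18.9 and 11.1 CPM in steady state (log2 fold change -3.72, SE 1.1, edgeR adjusted p 0.00952). Cmpk2, its neighbour and partner enzyme, averaged between 22.2 and 50.7 CPM in the 8 groups and passed nowhere. Bst2 had 37.8, 46.1 and 30.2 CPM in IL-33 stage III and 37.8, 28.5 and 39.4 CPM in steady state, which overlapped. Ifitm3 had 165, 163 and 97.4 CPM in IL-33 stage III and 218, 289 and 164 CPM in steady state, which overlapped. Neither Bst2 nor Ifitm3 was called in a comparison of the conditions.

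Gbp2, a large GTPase that coats intracellular vacuoles of pathogens, had 0.342, 1.14 and 0.882 CPM in IL-33 stage III, against 27.9, 10.6 and 16.6 CPM in steady state. Its log2 fold change was -4.15 (SE 1.1), -5.04 (SE 1.2) and -4.51 (SE 1.1) in stages I, II and III, with edgeR adjusted p of 0.0403, 0.0101 and 0.00325. No library overlapped in these stages. In stage IV, where it was not called, Gbp2 had 13.3, 5.54 and 5.27 CPM under IL-33 and 16.6, 9.33 and 3.98 CPM in steady state, and the groups overlapped. Gbp3 and Mx1, further GTPases, were lower only in the average over the stages, and Gbp7 averaged between 27 and 53.4 CPM in the 8 groups and was called in no comparison of the conditions. Guanylate-binding protein genes lie in a cluster of close copies, so their counts may be shared.

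Of the PARP family, which adds ADP-ribose to proteins, and its partner Dtx3l, 0 genes were called in stages I, II and IV. Dtx3l, a ubiquitin ligase that works with PARP9, had 16, 12.3 and 20 CPM in IL-33 stage III, against 47.3, 60.2 and 29.2 CPM in steady state (log2 fold change -1.50, SE 0.43, edgeR adjusted p 0.00918). The groups did not overlap. Parp12 and Parp14 were lower on average, by 1.42 and 1.11 on the log2 scale (SE 0.47 and 0.33, edgeR adjusted p 0.0215 and 0.0109). Parp9 was called in no comparison of the conditions. Exons of Parp9 and Dtx3l overlap on opposite strands.

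Xaf1, which encodes a protein that binds an inhibitor of apoptosis, and Rtp4, a chaperone of receptors, had the smallest p-values of the 41 in stage III. Xaf1 had 0.342, 0.603 and 0.561 CPM in IL-33 stage III, against 15.1, 18.5 and 14 CPM in steady state, a 30.7-fold lower level (log2 fold change -4.94, SE 0.66, edgeR adjusted p 7.34e-06). Rtp4 had 0.856, 0.536 and 1.04 CPM in IL-33 stage III, against 20.3, 32.2 and 22.6 CPM in steady state, a 30.6-fold lower level (log2 fold change -4.94, SE 0.66, edgeR adjusted p 7.41e-06). In both genes no IL-33 library came near the lowest steady state library. In stage IV Xaf1 had 4.92, 7.5 and 8.45 CPM under IL-33, against 35.3, 18.9 and 28.8 CPM in steady state, and the log2 fold change was -1.99 (SE 0.56, edgeR adjusted p 0.0228). Rtp4 had 15.8, 6.97 and 9.27 CPM in IL-33 stage IV, against 48.9, 36.9 and 32.3 CPM in steady state (log2 fold change -1.88, SE 0.56, edgeR adjusted p 0.0309). Each IL-33 library was below each steady state library in stage IV too.

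Trim30a, of a family of ubiquitin ligases, was lower in stages II, III and IV, with 7.02, 4.02 and 3.85 CPM in IL-33 stage III, against 35.8, 42.9 and 36.9 CPM in steady state (log2 fold change -2.96, SE 0.47, edgeR adjusted p 5.19e-05). In stage IV it had 18.4, 26.4 and 21.7 CPM under IL-33, against 50.2, 65.4 and 98.6 CPM in steady state (log2 fold change -1.69, SE 0.44, edgeR adjusted p 0.0141). The groups did not overlap, though close copies of Trim30a could share reads. Samd9l, a gene of antiviral defence and growth control in blood cells, had 165, 83.4 and 138 CPM in IL-33 stage III, against 465, 400 and 522 CPM in steady state (log2 fold change -1.85, SE 0.43, edgeR adjusted p 0.00203). Ifi35 and Sp100 also fell in stage III. Ifi35 had 97.9, 97.4 and 96.1 CPM under IL-33 and 160, 223 and 232 CPM in steady state, and Sp100 had 333, 262 and 336 CPM under IL-33 and 779, 597 and 683 CPM in steady state. Their log2 fold changes were -1.08 (SE 0.25) and -1.15 (SE 0.25), with edgeR adjusted p of 0.00176 and 0.00119, and neither pair of groups overlapped. Lgals3bp, a secreted glycoprotein, was lower in stage II, with 5.43, 4.1 and 3.44 CPM under IL-33 and 16.2, 49.3 and 9.42 CPM in steady state (log2 fold change -2.53, SE 0.65, edgeR adjusted p 0.0167).

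**Figure D3:**
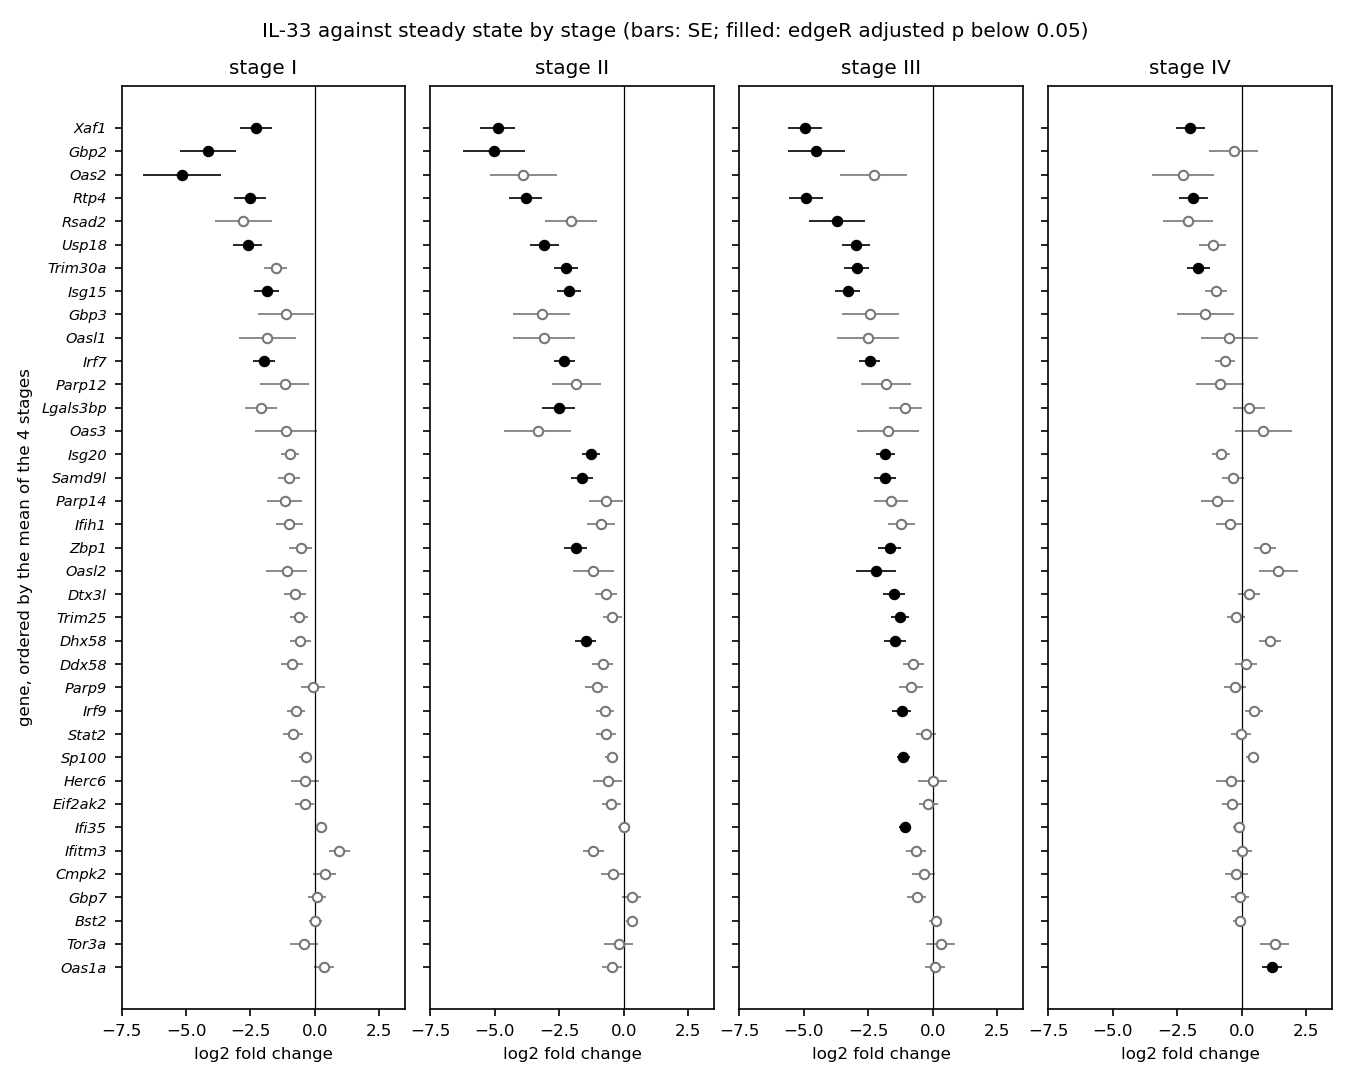
Log2 fold change of IL-33 against steady state (x axis, bars show the SE) for the tested genes (rows, ordered by the average over the stages) in each stage; filled points passed edgeR's adjusted p below 0.05, and Ifit1, Ifit2, Ifit3 and Mx1 are left out because of few reads. Points lie left of 0 for most genes in stages I to III and spread around 0 in stage IV, where Xaf1, Rtp4 and Trim30a stay to the left and Oas1a is to the right.

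The second question was how the genes change as eosinophils mature. Over the whole course many of the genes rose in both conditions, and none was called lower. From stage I to IV 23 of the 41 rose and 0 fell under IL-33 (of all genes 21.2% rose and 22.9% fell, 44.1% together), with a median log2 fold change of 1.75, or 1.63 with Ifit3 at its bound. In steady state 20 rose and 0 fell (of all genes 21.1% rose and 22.7% fell, 43.8% together), with a median of 1.08. The median of all genes tested was -0.03 in both conditions. The 20 genes that rose in steady state all rose under IL-33 too, which is 20 of the 23 there. How many of all genes rose in both conditions was not counted. Under every alternative setting 12 of the 20 calls held in steady state and 19 of the 23 under IL-33. Oas3, Gbp2 and Dtx3l passed under IL-33 alone, and the difference between the conditions of this whole course was not tested.

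The size of the net rise was large for several genes. Irf7 was 26.5-fold higher in stage IV than in stage I under IL-33 (log2 fold change 4.73, SE 0.46, edgeR adjusted p 3.53e-08) and 10.4-fold higher in steady state (log2 fold change 3.38, SE 0.42, edgeR adjusted p 1.3e-06). Isg15 was 15.7-fold higher under IL-33 and 8.56-fold higher in steady state, with edgeR adjusted p of 9.29e-07 and 1.38e-05. Zbp1 was 17.4-fold higher under IL-33 and 6.35-fold higher in steady state, with edgeR adjusted p of 5.27e-07 and 7.06e-05. Stage IV libraries lay above stage I libraries in each of these cases.

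The steps between neighbouring stages placed this rise at different points. In steady state 3 of the 41 rose and 0 fell from stage I to II (of all genes 3.58% rose and 1.29% fell, 4.87% together), 12 rose and 2 fell from II to III (17.2% rose and 17.4% fell, 34.6% together), and 0 rose and 1 fell from III to IV (3.55% rose and 5.67% fell, 9.23% together). The medians were 0.42, 0.85 and 0.14, against -0.01, 0.00 and 0.02 for all genes. Under IL-33 0 of the 41 changed from I to II by edgeR, with 4 at an unadjusted p below 0.05 and 0 by DESeq2, where 0.0785% of all genes rose and 0.0157% fell (0.0942% together). From II to III 0 changed by edgeR, with 5 at an unadjusted p below 0.05 and 1 by DESeq2, where 0.0863% of all genes changed, and 1 rose with the replicate number as a block. From III to IV 18 of the 41 rose and 0 fell under IL-33 (of all genes 13.1% rose and 16% fell, 29.1% together). The median of that step was 1.28, against 0.01 for all genes.

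In steady state the first step was carried by Ifitm3, Samd9l and Irf7. Ifitm3 had 186, 162 and 196 CPM in stage II, against 34.4, 27 and 47.6 CPM in stage I (log2 fold change 2.32, SE 0.41, edgeR adjusted p 0.00159). Samd9l had 147, 146 and 426 CPM in stage II, against 50.5, 52.2 and 122 CPM in stage I (log2 fold change 1.67, SE 0.43, edgeR adjusted p 0.0254). Neither gene's stages overlapped, and both were highest in the library numbered 3. The count of 3 became 1 without the first or the second stage I library, and 4 higher and 1 lower without the third.

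From stage II to III in steady state Isg15 had the steepest rise. It had 20.8, 32.7 and 24 CPM in stage III, against 6.84, 3.46 and 8.27 CPM in stage II (log2 fold change 2.06, SE 0.45, edgeR adjusted p 0.00124). Irf7 rose by 1.98 (SE 0.40), Parp14 by 1.94 (SE 0.67), Rtp4 by 1.48 (SE 0.56), Ifi35 by 1.39 (SE 0.25) and Sp100 by 1.17 (SE 0.25) on the log2 scale, with edgeR adjusted p of 0.000568, 0.0291, 0.0444, 0.000176 and 0.00104. Stage III was above stage II in every library for these 6. Ifit2 and Lgals3bp fell, Lgals3bp to 3.88, 3.43 and 6.89 CPM in stage III, against 16.2, 49.3 and 9.42 CPM in stage II (log2 fold change -2.39, SE 0.65, edgeR adjusted p 0.00615). Ifi35, Irf7, Isg15 and Sp100 held under every alternative, and the count of 14 was 8 without the second stage II library and 6 without the second stage III library.

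From stage III to IV in steady state the only call was Sp100. It averaged 314 ± 118 CPM in stage IV, against 686 ± 91 CPM in stage III (SD, n = 3 each; log2 fold change -1.13, SE 0.25, edgeR adjusted p 0.00556), without overlap. With the replicate number as a block 3 of the 41 were called, 1 higher and 2 lower. The call for Sp100 did not pass without the second stage IV library or without the libraries numbered 3, and without the first stage IV library 2 genes were lower.

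Under IL-33 the 18 called genes rose in the last step, and the other 23 tested genes did not pass. Isg15 had 29.3, 24.6 and 25.3 CPM in stage IV, against 3, 2.48 and 2.33 CPM in stage III, a 10.1-fold rise (log2 fold change 3.34, SE 0.48, edgeR adjusted p 1.6e-05). Oasl2 had 72.5, 77.2 and 49.2 CPM in stage IV, against 7.96, 2.08 and 4.49 CPM in stage III, a 13.7-fold rise (log2 fold change 3.78, SE 0.83, edgeR adjusted p 0.00132). Zbp1 rose 6.7-fold, with 60.7, 56.6 and 52.6 CPM in stage IV, against 12.8, 6.77 and 5.78 CPM in stage III (edgeR adjusted p 9.48e-05). For all 18 called genes every stage IV library lay above every stage III library. These genes had been picked by the test on the same libraries, and such separation was not counted over all genes.

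Xaf1 rose 13.5-fold, Rtp4 13.1-fold, Usp18 7.58-fold, Lgals3bp 6.77-fold, Trim30a 4.47-fold and Dhx58 4.45-fold in this step, with edgeR adjusted p between 0.000106 and 0.00279. Gbp2 and Rsad2 also rose, by 3.32 (SE 1.1) and 3.05 (SE 1.0) on the log2 scale, with edgeR adjusted p of 0.0213 and 0.0298. Irf7 and Irf9 both rose 3.19-fold, with edgeR adjusted p of 0.00262 and 0.00113. Of the 18 calls, 12 held under every alternative, and Gbp2, Rsad2, Trim25, Isg20, Dtx3l and Oas1a were lost in at least 1.

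**Figure D4:**
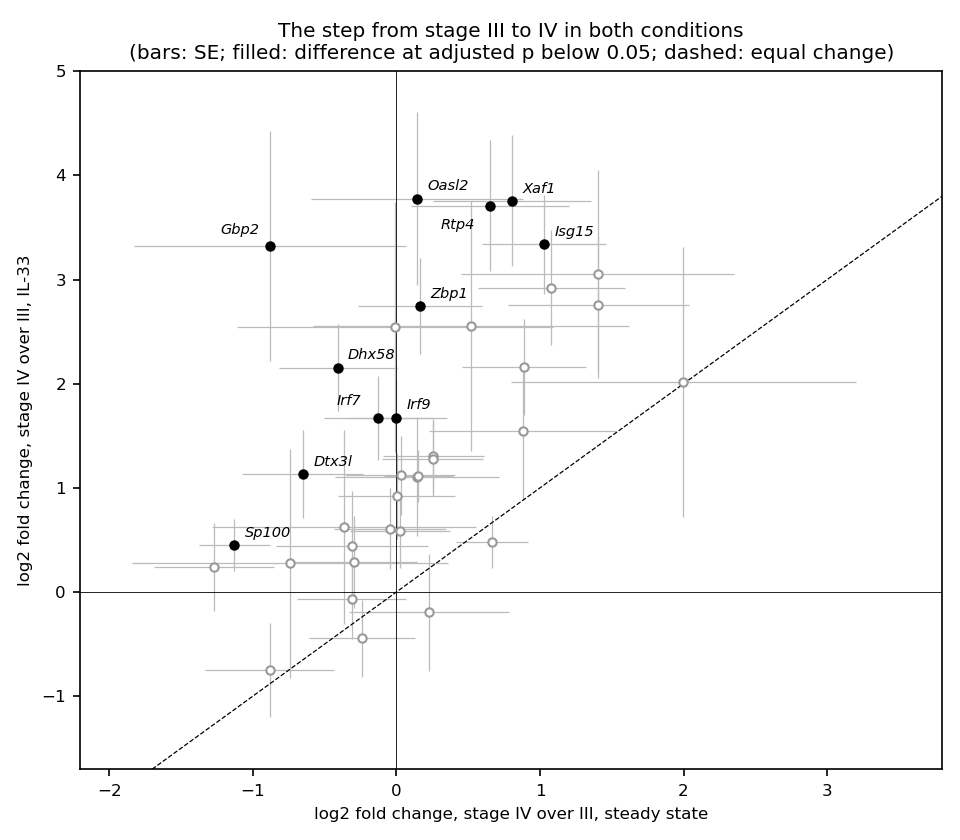
Log2 fold change of stage IV over stage III in steady state (x axis) and under IL-33 (y axis), with SE bars, for the tested genes (Ifit1, Ifit2, Ifit3 and Mx1 are left out because of few reads); the dashed line marks equal change. The 11 filled points, whose difference between the conditions passed, lie above the line, with Gbp2, Oasl2, Rtp4 and Xaf1 among the farthest from it.

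The difference of each step between the conditions was tested itself. From stage I to II 0 of the 41 differed by edgeR (0% of all genes did), with 3 at an unadjusted p below 0.05 and 1 by DESeq2. From II to III 0 differed by edgeR, with 1 at an unadjusted p below 0.05 and 0 by DESeq2, where 4.49% of all genes were higher and 2.12% lower (6.61% together). For the step from III to IV 11 of the 41 had a higher change under IL-33 and 0 a lower one (of all genes 8.44% were higher and 10.3% lower, 18.7% together). The median difference was 1.09, against 0.00 for all genes. This contrast equals the IL-33 effect of stage IV minus that of stage III and rests on the same 12 libraries.

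The 11 genes were Irf7, Irf9, Isg15, Dhx58, Zbp1, Oasl2, Gbp2, Dtx3l, Xaf1, Rtp4 and Sp100. For Isg15 the step was 3.34 under IL-33 and 1.03 in steady state on the log2 scale, a difference of 2.31 (SE 0.62, edgeR adjusted p 0.0113). For Zbp1 the difference was 2.58 (SE 0.62, edgeR adjusted p 0.00481), and for Dhx58 2.56 (SE 0.58, edgeR adjusted p 0.00331). Sp100, which fell in steady state, had 487, 436 and 347 CPM in IL-33 stage IV, against 333, 262 and 336 CPM in IL-33 stage III, a step that did not pass alone (edgeR adjusted p 0.185). Dhx58, Isg15, Rtp4, Sp100, Xaf1 and Zbp1 held under every alternative. Without the second or the third steady state library of stage IV 7 of the 41 were called, and without the second IL-33 library of stage III 6.

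The members were set beside other genes of the pathway. Alternative settings were tried for calls of the members only, so how firmly the pathway calls stand was not tested. The 11 interferon genes listed, among them Ifnb1, Ifng and Ifna2, had too few reads to be tested. In IL-33 libraries none of them had more than 3 counts in 1 library. In steady state Ifnb1 had 11 counts in 1 stage II library, Ifng had 8 and 15 counts in 1 stage I and 1 stage II library, and Ifna2 had 4 and 39 counts in 1 stage I and 1 stage IV library. All of these steady state counts were in the libraries numbered 3.

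Of the 6 receptor genes 0 were called in stage I, 1 was lower in stage II (Ifnlr1, a chain of the interferon lambda receptor with few reads), 3 were lower in stage III and 1 was higher in stage IV, where 4.06%, 8.03%, 33.4% and 12.2% of all genes were called in stages I to IV. Ifnar2, a chain of the type I interferon receptor, had 178, 130 and 134 CPM in IL-33 stage III, against 301, 345 and 251 CPM in steady state (log2 fold change -1.02, SE 0.19, edgeR adjusted p 0.000211). In stage IV Ifnar2 had 348, 347 and 329 CPM under IL-33, against 259, 231 and 202 CPM in steady state (log2 fold change 0.56, SE 0.18, edgeR adjusted p 0.0489). It thus lay below steady state in stage III and above it in stage IV in every library. Ifnar1, the other chain, was called in no single stage and was lower on average by 0.35 on the log2 scale (SE 0.13, edgeR adjusted p 0.0376).

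Of the 3 kinases, Jak2 was higher in stage IV, with 275, 314 and 288 CPM under IL-33, against 80.6, 86.8 and 121 CPM in steady state (log2 fold change 1.60, SE 0.28, edgeR adjusted p 0.000388). Among other transcription factors of the pathway, Irf8, which is needed for monocytes and dendritic cells and restrains granulocytes, had 11.3, 6.52 and 17.6 CPM in IL-33 stage II, against 69.9, 85.8 and 140 CPM in steady state (log2 fold change -3.06, SE 0.55, edgeR adjusted p 0.0013). Irf1 and Irf2 were lower in stages I, II and III, and Irf5 in stages II and III.

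Among the negative regulators Socs1, which blocks Janus kinases, moved the other way. Socs1 had 99.1, 50.3 and 46.8 CPM in IL-33 stage III, against 12.5, 8.8 and 11.6 CPM in steady state. It was higher under IL-33 in all 4 stages, by 3.05-fold, 4.53-fold, 5.97-fold and 3.63-fold, with edgeR adjusted p of 0.0394, 0.00385, 0.000146 and 0.00637. No library of the conditions overlapped in any stage. Of 11 tested genes that answer mainly to interferon gamma 0 were called in stages I, II and IV, and 3 were lower in stage III, Tap1, Psmb8 and Psmb9, which serve antigen processing, where 14.9% of all genes were lower.

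**Figure D5:**
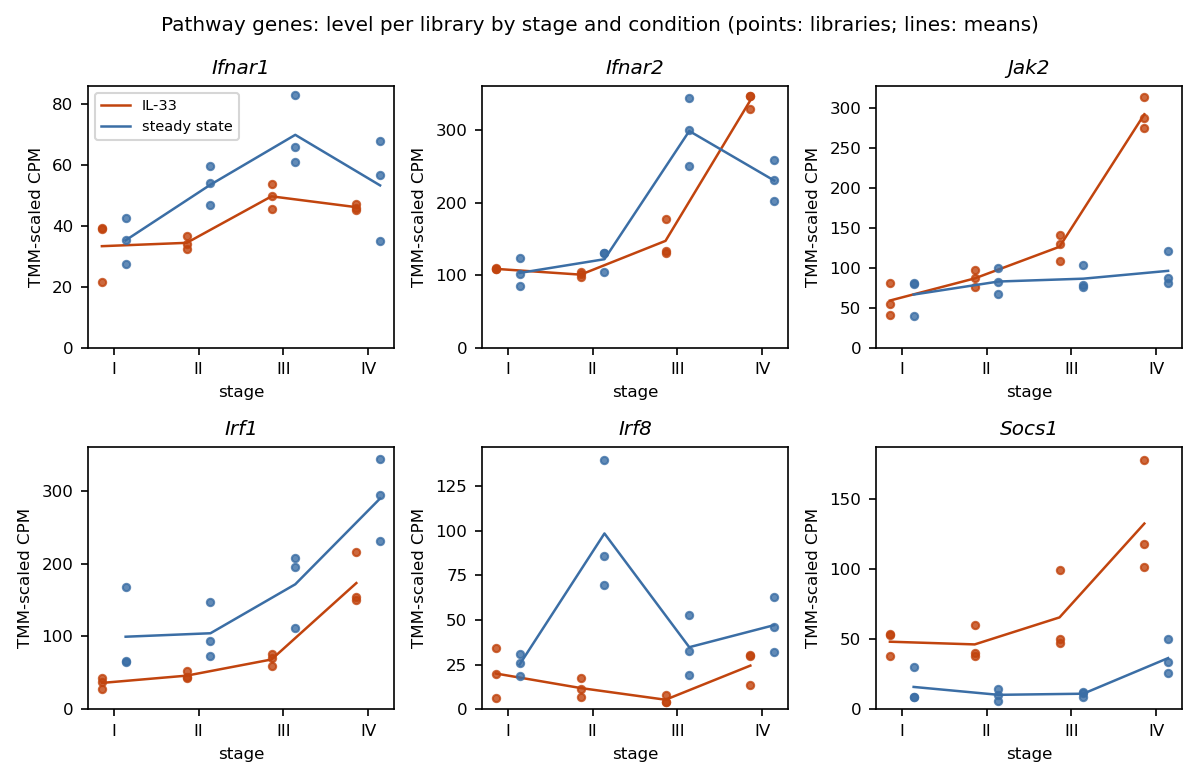
Level (TMM-scaled CPM, linear axis from 0) of pathway genes in each library by stage, with lines through the group means; IL-33 is drawn left of steady state. Socs1 lies higher under IL-33 in every stage, Irf1 and Irf8 lie lower in stages II and III, and Ifnar2 is lower in stage III and higher in stage IV.

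Markers of other cells also differed between the conditions, some lists lower and others higher under IL-33. Of all genes tested 1.36%, 3.97%, 14.9% and 4.68% were lower under IL-33 in stages I to IV. The shares that were higher were 2.71%, 4.06%, 18.5% and 7.48%. Of 9 neutrophil genes 0, 7, 9 and 2 were lower under IL-33 in stages I to IV and 0 higher, and their summed level ran over 1530 to 6040, 1220 to 3650, 2630 to 3830 and 5780 to 9590 CPM in IL-33 stages I to IV, against 2200 to 9280, 14900 to 22900, 18600 to 22800 and 8940 to 24400 CPM in steady state. From stage III to IV under IL-33 4 of the 9 rose, where 13.1% of all genes did. Of 14 monocyte and macrophage genes 1, 8, 11 and 2 were lower in stages I to IV, and 0, 0, 1 and 1 higher. Their sum ran over 866 to 918, 1200 to 1420, 1450 to 1710 and 3490 to 3710 CPM in IL-33 stages I to IV, against 768 to 844, 1790 to 2980, 3110 to 3400 and 1790 to 1930 CPM in steady state. From stage III to IV under IL-33 5 of the 14 rose, again beside 13.1% of all genes. Of 6 basophil and mast cell genes 1, 1, 4 and 4 were higher under IL-33 in stages I to IV and 1, 2, 1 and 1 lower. Their sum was 1310 ± 202, 1480 ± 244, 2330 ± 75.1 and 1460 ± 327 CPM in IL-33 stages I to IV, against 1680 ± 368, 2300 ± 1100, 416 ± 84 and 376 ± 322 CPM in steady state (SD, n = 3 each), and the ranges did not overlap in stages III and IV. Of 3 tested T and NK cell genes 1 was higher and 1 lower in stage III and 1 was higher in stage IV, and their list summed to 306 to 367 CPM in IL-33 stage III, against 24 to 84.6 CPM in steady state. Nkg7 made up most of that sum. Of the CD3 genes of T cells, Cd3e was at or near 0 in stages III and IV, but Cd3d was not. Cd3d had 71, 77 and 58 counts in IL-33 stage III, against 92, 97 and 296 counts in steady state. In stage IV it had 161, 84 and 115 counts under IL-33 and 49, 88 and 71 counts in steady state. Of 6 tested plasmacytoid dendritic cell genes 0 were called lower in any single stage. Siglech, which defines those cells, was at 0 in 11 of the 12 IL-33 libraries and at or below 13.1 CPM in steady state. Cox6a2 of the same list went the other way in stages I and III. It had 117, 320 and 52 counts in IL-33 stage I, against 18, 4 and 35 counts in steady state. In stage III Cox6a2 had 72, 166 and 13 counts under IL-33 and 0 counts in each steady state library. In stage IV the higher monocyte sum under IL-33 was carried by Ly6c2, with 2300 ± 175 CPM under IL-33 and 386 ± 81.8 CPM in steady state (SD, n = 3 each). The part of these cells in the results was not tested.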

How the data were processed

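RNA of sorted eosinophils was sequenced with SMART-Seq v4 and Nextera XT, which do not mark strand, per the labels' protocols. The authors deposited raw read counts per gene. STAR 2.6.1a, mm10 and DESeq2 are named in the submitters' processing notes, while the tool that counted reads and its gene models are not given in the labels or headers. Entries that name no gene (no feature, ambiguous at 1.73% to 2.6% of reads) were left out of library sizes.

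Counts were tested with edgeR 4.0.16 (quasi-likelihood, filterByExpr with a minimum count of 10, TMM scaling, all 8 groups in 1 fit) in R 4.3.3, with Benjamini-Hochberg adjustment over 12743 genes. SE is the log2 fold change divided by the square root of F. CPM are TMM-scaled. Other settings were DESeq2 1.42.0, RLE factors, library totals, no filter, only the libraries compared, a replicate block, each library left out, and no steady state libraries numbered 3. On simulated data for the stage III comparison, 148 of 200 genes changed 4-fold were recovered (74%) among 12489 genes.

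The members and lists were chosen with earlier results of these data known. Full statistics were given for members past the threshold with a group mean of at least 5 CPM, up to 6 per direction and comparison by fold change, and for a panel of 12 members. Those given for Zbp1, Dhx58, Isg20, Dtx3l, Trim30a, Samd9l, Ifi35 and Sp100 in stage III were added after their values were seen.

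Same-numbered libraries deviated together (every correlation over 0.1) in both early steps under IL-33 (to stage II and to stage III). They also did in the steady state steps to stage II and to stage IV, and in the net course in steady state. In the step to stage IV under IL-33 and the steady state step to stage III the lowest correlation was 0.073 and 0.091. Even so, each of the 6 libraries in either step was closest to the one of its own number. In the other comparisons at least 1 correlation was below 0.1. The replicate numbers come from the labels, which do not say what they share. One further gene of the pathway is not reported here.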

Additional observations from a re-analysis of the deposited data

Results flagged for a closer look

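For 11 genes the change from stage III to IV differed between the conditions by the test of the difference itself. The difference of the log2 fold changes (IL-33 minus steady state, edgeR) was 1.798 for Irf7, 1.672 for Irf9, 2.309 for Isg15, 2.562 for Dhx58 and 2.578 for Zbp1. It was 3.635 for Oasl2, 4.202 for Gbp2, 1.785 for Dtx3l, 2.952 for Xaf1, 3.055 for Rtp4 and 1.577 for Sp100. Of all genes tested 8.44% had a higher change under IL-33 in the same contrast and 10.3% a lower one. Of 9 neutrophil genes 3 and of 14 monocyte genes 4 had a higher change in it. The part of these cells in the result was not tested.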

How the results depend on the processing

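Of 158 calls of single genes, tried under 2546 alternative values in all, 2239 values kept the call, 307 did not and 0 reversed, and 85 calls were kept under every alternative. With only the libraries compared in the fit, the count of the 41 genes called was 3 in stage I and 4 in stage II, 2 for the step from II to III under IL-33, and, in steady state, 1 for the step to stage II and 5 for the step to stage III. DESeq2 gave 1 for II to III under IL-33, 6 for I to II and 3 for III to IV in steady state, and 1 for the difference of the step from I to II. Without a filter the counts were 1 for II to III under IL-33 and 2 for III to IV in steady state. RLE factors gave 9 for II to III in steady state. Library totals gave 6 for II to III and 2 for III to IV in steady state and 7 for the difference of the step from III to IV. They moved the median of all genes by between -0.395 and 0.306, and under them 12 genes rose and 2 fell over the whole course in steady state, and 21 rose and 2 fell under IL-33. Without the steady state libraries numbered 3 the step from I to II in steady state had 5. With counts summed over the stages 18 genes were called on average. The causes were not tested.

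With the replicate number as a block 1 gene was called for II to III under IL-33, 3 for III to IV in steady state and 1 for the difference of the step from II to III. The block moved no other count by over 1.5 times.

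With 1 library left out in turn, the counts ranged over 0 to 7, 7 to 11, 13 to 20 and 1 to 3 in stages I to IV, 24 to 30 on average, 13 to 17 for III to IV under IL-33, 1 to 5, 6 to 11 and 0 to 2 for the steady state steps, 21 to 25 and 14 to 20 for the whole course under IL-33 and in steady state, and 0 to 0, 0 to 2 and 6 to 12 for the step differences. For the difference of the step from II to III 1 was called without the first steady state library of stage II and 2 without that of stage III. Genes near 0 counts, such as Ifit3, were limited by depth.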
